A study of Homo sapiens with 4 samples.

Results

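Keratins, the proteins of epithelial intermediate filaments, are described here in a pair of MDA-MB-231 breast cancer lines sorted for low and high activity of a Wnt reporter. The keratin genes were the rows of the deposited count table whose Ensembl identifier maps to a protein-coding gene named KRT followed by a number and at most 1 letter. Keratin-associated proteins and keratin pseudogenes were left out. This rule found 45 of the 43714 genes in the table, 25 encoding type I and 20 encoding type II keratins. Of the 45, 14 had enough reads to be tested and 31 did not, and all 14 are given below with their values. Of the 14, 11 passed the count filter in both lines, KRT81 among them, and KRT20, KRT23 and KRT79 passed in some libraries only.

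The parent line, MDA-MB-231, comes from a human triple-negative breast cancer and is labelled mesenchymal. Cells were stably transfected with 7TGP, a vector in which 7 TCF sites drive EGFP, and were kept in 3 ug/mL puromycin for at least 5 passages in DMEM with 10% FBS. Repeated expansion and sorting, 8 rounds in all, gave the reporter-positive line, in which over 80% of cells were EGFP-positive, and the reporter-negative line, in which over 95% were EGFP-negative. Both lines carry the vector, and the labels name the reporter-negative line as the control. Each reporter state is represented by a single line with 2 libraries, all 4 libraries carrying the same batch label. Nothing in the labels says that the paired libraries were grown as separate cultures, so p-values reflect only how far these libraries differ, which may be technical. Below, the negative and the positive libraries are those of the reporter-negative and of the reporter-positive line, and 4 values in a row are the negative libraries numbered 1 and 2 followed by the positive ones.

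Keratin filaments are built from pairs of a type I and a type II chain, so an epithelial cell makes members of both classes. KRT8 and KRT18, with KRT7 and KRT19, are the keratins of simple epithelia, and luminal cells of the breast carry them. KRT5, KRT14, KRT15 and KRT17 mark basal cells of stratified epithelia and the myoepithelium, and KRT81 to KRT86 with KRT31 to KRT40 are hair keratins, which harden the hair shaft and are rarely made elsewhere. The type II genes and KRT18 lie in a cluster on chromosome 12, and the other type I genes lie in a cluster on chromosome 17.

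Of the 14 tested keratins, 5 were higher in the reporter-positive line (KRT81, KRT86, KRT17, KRT80 and KRT7), 4 were lower (KRT19, KRT8, KRT18 and KRT15), and 5 did not pass the test (KRT20, KRT10, KRT79, KRT23 and KRT34). The 2 hair keratins KRT81 and KRT86 differed most, at 40.3-fold and 5.17-fold. The abundant simple keratins KRT19, KRT8 and KRT18 fell to between 68.9% and 83.6% of the reporter-negative level. Genes were called at an adjusted p under 0.05 (edgeR quasi-likelihood test, Benjamini-Hochberg adjustment over all 30952 genes tested). By the same rule 22.4% of all tested genes were called, 11.6% higher and 10.9% lower, so a single call is common in this comparison. When reads were scaled by total count instead, higher genes made up 36.0% of all calls in place of 51.5%. Libraries of the lines did not overlap for 9 of the 14 keratins, all 9 of them called, with 5 higher and 4 lower. Of all tested genes 57.7% did not overlap, 28.2% higher and 29.5% lower. The 14 tested keratins had a median log2 fold change of 0.05, and all tested genes had one of -0.0046. Leaving out the negative library numbered 2 lowered the number of keratins called lower from 4 to 1, which was KRT19.

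Total counts were 55894092 to 63034563 per library. Among nested pairs of genes with at least 100 counts in every library, the host gene had as many counts as the gene inside it, or more, in all 4 libraries in 2079 of 2079 pairs on opposite strands and in 1303 of 1303 pairs on the same strand. A read was thus counted at each gene whose span it overlaps, on either strand and with introns, and reads from genes that overlap cannot be told apart. Overlaps that touch a keratin are given beside it. In bulk RNA, more cells that make a transcript and more transcript per cell cannot be told apart. Of 5 markers of the line itself, CD44 and MSN were higher, VIM and FOSL1 were lower and AXL did not pass. VIM, the mesenchymal filament protein, had 161231 to 172355 counts in the negative and 70348 to 78930 in the positive libraries. CDH1, the epithelial cadherin, had 25 to 48 counts in any library. Of the markers of other cell types, LUM was higher and PDGFRB lower among 6 fibroblast genes, whose summed level was 13.99 to 15.61 CPM in the negative and 14.16 to 15.97 CPM in the positive libraries. None of the 4 endothelial genes passed, with summed levels of 76.0 to 90.9 and 60.9 to 78.2 CPM, nearly all from PECAM1 (3084 to 5645 counts). None of the 3 tested leukocyte genes passed either. PTPRC had 122 to 182 counts, CD14 168 to 242, and the T cell gene CD3E 7 or fewer. The part of other cell types in the keratin values was not tested.

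**Figure D1:**
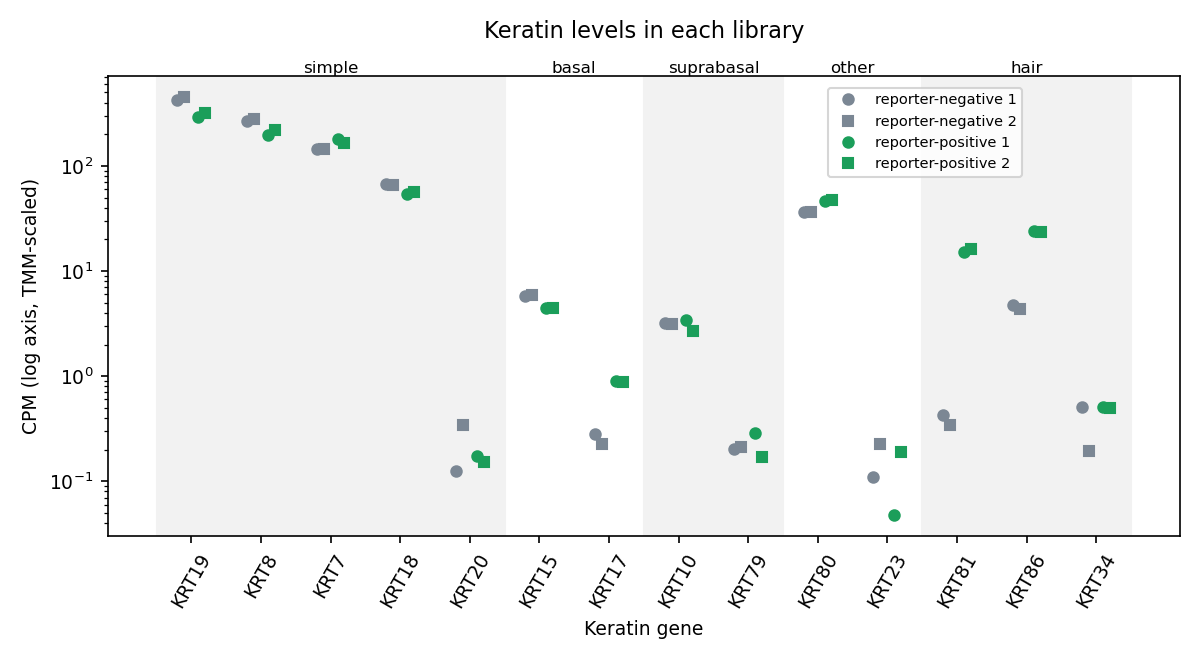
CPM (counts scaled to library size, log axis) of the 14 tested keratins in each of the 4 libraries, with reporter-negative and positive libraries in different colours. KRT19, KRT8 and KRT7 are the most abundant in every library, and KRT81 shows the widest separation, from 0.342 to 0.425 CPM in the negative libraries to 15.1 to 16.03 CPM in the positive libraries.

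The 5 simple keratins made up most keratin RNA in both lines, at 925 of 978 CPM in the reporter-negative line and 742 of 824 CPM in the reporter-positive line. Of these, 1 was higher, 3 were lower and KRT20 did not pass, and the median log2 fold change of the group was -0.38. KRT7, KRT8, KRT18 and KRT19 together with KRT80 held 98.3% ± 0.0286 of the summed keratin CPM in the reporter-negative line and 95.7% ± 0.179 in the reporter-positive line (SD, 2 libraries each). KRT19 alone held 45.0% ± 0.955 and 36.8% ± 0.968.

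KRT19 (ENSG00000171345, chromosome 17, 41523617 to 41528308, minus strand) encodes the smallest keratin, a type I chain that lacks most of the tail domain. The negative libraries held 26931 and 27987 reads of it and the positive libraries 18295 and 16514, or, as counts scaled to library size (CPM), 424 and 456 against 291 and 315. Both positive libraries lay below both negative libraries. The mean fell from 440 ± 22.3 to 303 ± 16.9 CPM (SD, n = 2 each), a log2 fold change of -0.54 (SE 0.08, edgeR adjusted p = 4.38e-05). No listed gene overlaps KRT19, and the adjusted p stayed at or below 0.0144 over all alternatives run.

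KRT8 (ENSG00000170421, chromosome 12, 52897187 to 52949954, minus strand) is the main type II partner of KRT18 in simple epithelia. Its counts went from 17016 and 17172 without to 12480 and 11576 with reporter activity, or 268 and 280 against 199 and 221 CPM. The libraries of the lines did not overlap. The mean fell from 274 ± 8.20 to 210 ± 15.7 CPM (SD, n = 2 each), to 76.6% of the reporter-negative level (log2 fold change -0.38, SE 0.08, edgeR adjusted p = 0.000888). Without the negative library numbered 2, the adjusted p was 0.0803. The annotated span of KRT8 shares 1084 bases with that of KRT18 on the other strand. Taking off all KRT18 counts removes more than the shared reads, since most of KRT18 lies outside the overlap, and so leaves a lower limit for KRT8. On that basis KRT8 went from 207 ± 9.71 to 154 ± 14.1 CPM, a log2 fold change of -0.43 (SE 0.08, edgeR adjusted p = 0.000405).

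KRT18 (ENSG00000111057, chromosome 12, 52948871 to 52952901, plus strand), the type I chain that pairs with KRT8, had 4292 and 4021 counts in the negative and 3423 and 2972 in the positive libraries. These correspond to 67.6 and 65.5 CPM and to 54.5 and 56.7 CPM, again with no overlap. The mean fell from 66.5 ± 1.504 to 55.6 ± 1.57 CPM, with a log2 fold change of -0.26 (SE 0.07, edgeR adjusted p = 0.0104). The call was lost without the negative library numbered 1 (adjusted p = 0.234) or numbered 2 (adjusted p = 0.0997).

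KRT7 (ENSG00000135480, chromosome 12, 52232520 to 52252186, plus strand), a type II chain of ductal and glandular epithelia, moved the other way. It had 9227 and 8873 counts in the negative and 11367 and 8702 in the positive libraries, or 145.3 and 144.5 against 181 and 166 CPM. After scaling, both positive libraries lay above both negative libraries, and they stood further apart from each other than the reporter-negative pair did. The mean rose from 144.9 ± 0.601 to 174 ± 10.5 CPM, 1.20-fold (log2 fold change 0.26, SE 0.07, edgeR adjusted p = 0.0139). Of the 5 rises, it was the only one whose call was lost under an alternative that tested the gene. The adjusted p was 0.123 with total count scaling, 0.235 without the negative library numbered 1 and 0.261 without the one numbered 2. The last 2887 bases of KRT7 lie inside the annotated span of KRT86, on the same strand. KRT7-AS, an antisense RNA within KRT7, had 1687, 1489, 2063 and 1607 counts, and reads of the antisense and sense genes cannot be told apart.

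KRT20, the keratin of intestinal and urothelial surface cells, was near the limit of the test with 8 and 21 counts in the negative and 11 and 8 in the positive libraries. The lines overlapped, and the log2 fold change of -0.50 (SE 0.57) did not pass (edgeR adjusted p = 0.62).

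Levels of different genes can be compared per length of exon. In the reporter-negative line, CPM per kilobase of exon was 188 ± 9.54 for KRT19, 39.8 ± 1.19 for KRT8, 35.4 ± 0.147 for KRT7, 20.7 ± 0.467 for KRT18 and 8.35 ± 0.0481 for KRT80. The reporter-positive line had 130 ± 7.23 for KRT19, 42.4 ± 2.58 for KRT7, 30.5 ± 2.28 for KRT8, 17.3 ± 0.488 for KRT18 and 10.8 ± 0.237 for KRT80. KRT19 led in both lines, and KRT8 and KRT7 changed places on this scale only. Each gap between neighbours in this order was wider than the SD of either, taken from 2 libraries each. Below them in the reporter-positive line came KRT86, its span including KRT81, at 9.91 ± 0.0774 and KRT81 at 8.08 ± 0.326, where they had 1.91 ± 0.111 and 0.199 ± 0.0305 in the reporter-negative line. Gene spans were counted with introns, so values per exon length overstate genes with many intronic reads. Exon length was the union over all annotated transcripts, 6881 bases for KRT8 and 4093 for KRT7, so the order depends on it. In CPM, KRT8 lay above KRT7 in both lines, at 274 against 145 and at 210 against 174.

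Summed over the family, with KRT81 reads taken once, keratin RNA was 958 and 998 CPM in the negative libraries and 807 and 842 CPM in the positive libraries. The sum in the reporter-positive line was thus 0.843 of that in the reporter-negative line. The net difference lay in the type I genes, which summed to 518 ± 21.1 and 369 ± 18.4 CPM. KRT19 went from 440 to 303 CPM within that sum. The type II genes summed to 460 ± 7.76 and 455 ± 5.85 CPM. That sum combined a fall of KRT8, from 274 to 210 CPM, with rises of KRT7, KRT80, KRT81 and KRT86. No test was made on these sums, because an exact permutation test of 2 against 2 libraries cannot go below 0.33.

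KRT8, KRT18 and KRT19 have many processed pseudogenes, whose sequence is close to the parent transcript. Of the 50-base words in KRT8 transcripts, 16.1% also occur in transcripts of other genes, 5.49% in KRT8P3 alone. For KRT18 the share was 24.5%, for KRT7 5.70% and for KRT19 0.977%. The 44 KRT8 pseudogenes in the table summed to 242 ± 8.68 CPM in the reporter-negative line, close to the level counted at KRT8 itself, and to 189 ± 24.3 CPM in the reporter-positive line. KRT8P3 had 9189, 9448, 6417 and 6654 counts, 76.7% of the reporter-negative level in the reporter-positive line (edgeR adjusted p = 0.00565), beside 76.6% for KRT8. The span of KRT8P3 overlaps that of 1 other gene, and reads of the 2 cannot be told apart. KRT19P1 had 1209, 1239, 779 and 674 counts, 64.4% of the reporter-negative level, beside 68.9% for KRT19. How the reads of parent and pseudogene were divided cannot be told from gene counts, so the levels of KRT8, KRT18 and KRT19 are uncertain by these amounts, while parent and copy differed in the same direction.

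The lines were sorted on transcription through TCF sites, so the KRT8 promoter was searched for the core motif of the TCF/LEF factors. It is shown because KRT8 was the only one of the 9 changed keratins with an entry in the RefSeq promoter table. The 250 bases before the start lie at chr12:52926470-52926719 of GRCh38.p14 on the minus strand, and capitals mark the motif match.

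KRT8 promoter: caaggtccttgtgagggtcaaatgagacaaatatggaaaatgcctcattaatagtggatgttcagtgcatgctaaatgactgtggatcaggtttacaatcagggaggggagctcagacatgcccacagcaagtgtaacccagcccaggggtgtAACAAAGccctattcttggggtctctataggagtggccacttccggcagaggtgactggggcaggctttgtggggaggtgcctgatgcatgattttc

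The letters searched on both strands were CTTTGAA or CTTTGTT, with CTTTGAT or CTTTGTA as further forms. The match reads CTTTGTT on the other strand and lies 97 to 91 bases before the start. Of 35116 promoters of the same length, 11.96% hold at least 1 such match. The AP-2 motif GCCNNNGGC (19.8% of promoters), the AP-1 motif TGANTCA (6.57%), the Sp1 motif GGGCGG (42.6%) and the TATA motif TATAAA (10.7%) had no match in this window. This start belongs to a single annotated transcript of KRT8, and it lies inside the KRT8 span. Other transcripts start further upstream, and any starts downstream of it were not searched. Gene counts do not tell which start the KRT8 reads came from, so this window may not be the promoter behind them. The match is a description of the sequence only, and no binding was measured.

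Basal keratins split, with 1 higher, 1 lower and 2 below the count filter. KRT17 (ENSG00000128422, chromosome 17, 41619441 to 41624842, minus strand) is a type I keratin of basal and injured epithelium. It had 18 and 14 counts in the negative and 57 and 46 in the positive libraries, or 0.283 and 0.228 against 0.908 and 0.878 CPM. All libraries had few reads, yet the pairs stood well apart. The mean rose 3.47-fold, from 0.256 ± 0.0393 to 0.893 ± 0.0210 CPM (log2 fold change 1.79, SE 0.36, edgeR adjusted p = 0.000784). With all 4 libraries kept, the adjusted p stayed at or below 0.00587, its value with DESeq2, in the alternatives that tested KRT17. The filter at 1 CPM in 2 libraries removed KRT17. With a library left out, its log2 fold change was 1.65 to 1.96. Of the 50-base words of KRT17, 9.02% also occur in other transcripts, those of the pseudogene KRT17P1 among them.

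KRT15 (ENSG00000171346, chromosome 17, 41513743 to 41522529, minus strand), a type I keratin of basal keratinocytes and the hair bulge, had 369 and 364 counts in the negative and 277 and 232 in the positive libraries. On the CPM scale these were 5.81 and 5.93 against 4.41 and 4.43, without overlap. The mean fell to 75.3% (log2 fold change -0.41, SE 0.13, edgeR adjusted p = 0.0317). The call was lost with DESeq2 (adjusted p = 0.104) and, in edgeR, without the negative library numbered 1 (adjusted p = 0.175) or numbered 2 (adjusted p = 0.192). The microRNA gene MIR6510, inside KRT15, had 15, 30, 27 and 14 counts. KRT14 had 7, 6, 6 and 21 counts, and its partner KRT5, the type II chain of basal cells, had 0, 1, 2 and 0, so neither defining basal pair member was detected at a level that could be tested.

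Of 5 myoepithelial markers, TP63, the master transcription factor of basal epithelium, was higher. ACTA2, MYH11 and OXTR were lower and CNN1 did not pass. The summed level of all 5, TP63 included, was 33.7 to 34.5 CPM in the negative and 40.3 to 40.8 CPM in the positive libraries. TP63 alone had means of 5.25 and 19.2 CPM, so the higher sum is not a rise of the other markers. The reads of ACTA2, MYH11 and OXTR cannot be told apart from those of the overlapping genes STAMBPL1, NDE1 and CAV3. The part of myoepithelial-like cells in the KRT17 and KRT15 values was not tested. Of 7 luminal markers, FOXA1 was higher and ERBB2 lower, and 5 did not pass. FOXA1 had only 4 to 51 counts and lies inside the span of TTC6. It passed the count filter in the positive libraries only, so its entry into the test depended on the line in which it was higher.

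KRT80 (ENSG00000167767, chromosome 12, 52168996 to 52192000, minus strand), a type II keratin found near desmosomes, rose from 36.2 and 36.5 CPM in the negative libraries to 46.1 and 47.6 CPM in the positive libraries. Each pair was tight, and the lines did not overlap. The means were 36.3 ± 0.209 and 46.9 ± 1.03 CPM, a 1.29-fold rise (log2 fold change 0.37, SE 0.07, edgeR adjusted p = 0.000683). With all 4 libraries kept, the adjusted p was at or below 0.0150 (edgeR, total count scaling) in the alternatives that tested KRT80. The fit on genes without overlap left KRT80 out. With a library left out, its log2 fold change was 0.34 to 0.39. LINC00592, a noncoding gene on the other strand, spans the whole of KRT80. It had 2331, 2269, 2933 and 2519 counts beside 2298, 2241, 2898 and 2494 for KRT80, so the strand of these reads is not known, and 25 to 35 counts per library lay in LINC00592 outside KRT80.

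The keratins of activated and differentiating epidermis showed no call. KRT10, the type I chain of suprabasal epidermis, had 205, 193, 216 and 141 counts with overlapping lines and a log2 fold change of -0.05 (SE 0.17, edgeR adjusted p = 0.891). Its span is shared with KRT10-AS1 on the other strand, which had 351, 360, 337 and 261 counts. KRT79 had 13, 13, 18 and 9 counts (log2 fold change 0.16, SE 0.51, edgeR adjusted p = 0.883). KRT23, a type I keratin of glandular epithelia, had 7, 14, 3 and 10 counts (log2 fold change -0.55, SE 0.68, edgeR adjusted p = 0.653), and the antisense gene ENSG00000234477 across it had 20, 33, 34 and 32. Counts this low allowed only large differences to be detected for KRT79 and KRT23.

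**Figure D2:**
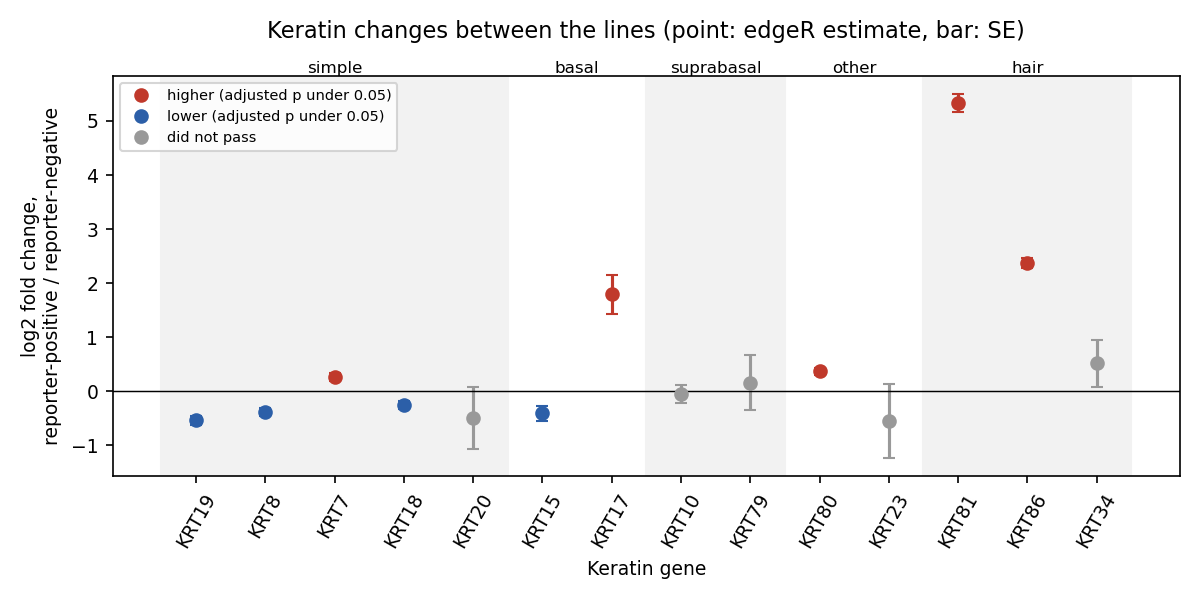
Log2 fold change (reporter-positive over reporter-negative) of the 14 tested keratins, ordered by group, with bars of 1 standard error from edgeR. Red and blue points had an adjusted p under 0.05 and grey points did not pass. KRT81 at 5.33 and KRT86 at 2.37 stand furthest from 0, while KRT19 at -0.54, KRT15 at -0.41, KRT8 at -0.38 and KRT18 at -0.26 are the called keratins below 0.

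The 31 keratins below the count filter had 3 to 43 counts summed over the 4 libraries, with a median of 11 and at most 22 in a library, and all 31 had some. They were KRT5 and KRT14 of the basal group and the activation keratins KRT6A, KRT6B, KRT6C and KRT16, which rise in wounded epidermis. The suprabasal KRT9, KRT12, KRT13, KRT76, KRT77 and KRT78 and the short KRT222 were also among them. KRT25, KRT27, KRT28, KRT72, KRT73, KRT74 and KRT75 of the inner root sheath were all below the filter. The hair keratins KRT31, KRT32, KRT33A, KRT33B, KRT37, KRT38, KRT39, KRT40, KRT82, KRT83 and KRT85 completed the set. KRT16 had 9, 8, 7 and 13 counts, and KRT6A, KRT6B and KRT6C had 0 to 5 in any library. KRT27 reached 22 counts in the negative library numbered 2 and 0 in the one numbered 1. A further 10 keratins (KRT1, KRT2, KRT3, KRT4, KRT24, KRT26, KRT35, KRT36, KRT71 and KRT84) had no row in the count table under the naming rule used.

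Of 14 hair keratins in the table, 3 were tested, of which KRT81 and KRT86 were higher and KRT34 did not pass. Their median log2 fold change was 2.37, and the summed level of the group, with KRT81 reads taken once, went from 5.53 ± 0.436 to 25.0 ± 0.189 CPM (SD, n = 2 each). KRT81 and KRT86 are type II hair cortex keratins with nearly the same coding sequence, and mutations in both cause the brittle hair of monilethrix. KRT81 and KRT86 coding sequences were identical at 1372 of 1457 aligned bases (94.2%), KRT81 and KRT83 at 93.3%, and KRT86 and KRT83 at 91.4%. Of the 50-base words of KRT81 transcripts, 43.7% also occur in transcripts of other genes, 37.6% in KRT86, 8.87% in the pseudogene KRT87P and 6.11% in KRT83. The other words of KRT81 were in no other gene's transcripts, and for the shared ones the placement of reads between the hair keratins is uncertain.

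KRT81 (ENSG00000205426, chromosome 12, 52285913 to 52291534, minus strand) had 27 and 21 counts in the negative and 951 and 840 in the positive libraries, or 0.425 and 0.342 CPM against 15.1 and 16.03 CPM. Both positive libraries were far above both negative libraries. The mean rose from 0.384 ± 0.0589 to 15.6 ± 0.629 CPM, 40.3-fold (log2 fold change 5.33, SE 0.17, edgeR adjusted p = 3.47e-15). KRT81 had the 16th largest log2 fold change of all genes called higher in this comparison. Over the alternatives that tested it, its log2 fold change was 5.19 to 5.51. With all 4 libraries kept, its adjusted p was at or below 2.62e-09, the value with limma-voom. The fit on genes without overlap left KRT81 out. As a share of summed keratin CPM, KRT81 was 0.0393% ± 0.00718 in the negative and 1.89% ± 0.0208 in the reporter-positive line.

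KRT86 (ENSG00000170442, chromosome 12, 52249300 to 52309163, plus strand) had 303 and 270 counts in the negative and 1498 and 1236 in the positive libraries, or 4.77 and 4.396 against 23.9 and 23.6 CPM. The mean rose from 4.58 ± 0.266 to 23.7 ± 0.185 CPM, 5.17-fold (log2 fold change 2.37, SE 0.10, edgeR adjusted p = 2.34e-13). The annotated span of KRT86 holds the whole of KRT81 on the other strand, so each KRT81 read was also counted at KRT86. KRT81 counts were equal to 8.34% ± 0.801 of KRT86 counts in the reporter-negative line and to 65.7% ± 3.17 in the reporter-positive line.

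With KRT81 counts taken off, KRT86 was left with 276 and 249 counts in the negative and 547 and 396 in the positive libraries. The means were then 4.20 ± 0.207 and 8.13 ± 0.814 CPM, a ratio of 1.94 in place of 5.17. The span also holds the pseudogene KRT87P, whose counts were 112, 107, 213 and 181 (log2 fold change 0.96, edgeR adjusted p = 0.000427). With KRT87P taken off as well, 2.58, 2.31, 5.32 and 4.10 CPM remained, and a fit of these counts gave KRT86 a 1.93-fold rise (log2 fold change 0.95, SE 0.17, edgeR adjusted p = 0.000284). The counts left at KRT86 thus remained higher after both subtractions, with a smaller difference than in the deposited counts. The start of the KRT86 span also takes in the end of KRT7, on the same strand, and reads from there were not taken off. Of the 50-base words of KRT81, 37.6% also occur in KRT86, so some KRT81 reads may have been placed at KRT86. The remaining rise therefore cannot be credited to KRT86 alone. KRT88P, ENSG00000257830, ENSG00000285102 and ENSG00000257829, which also lie in the span, had 2 to 15 counts each in any library.

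**Figure D3:**
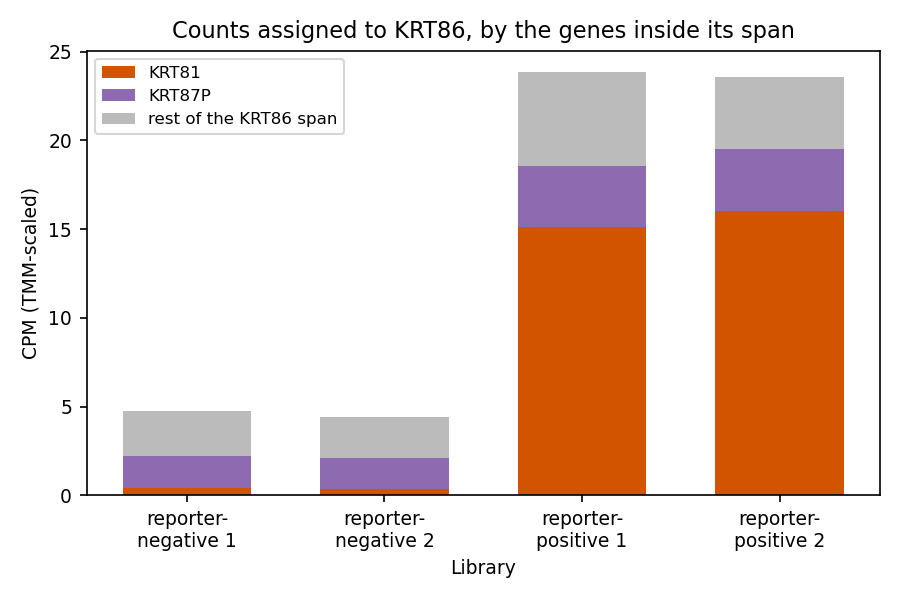
CPM at the KRT86 span in each library, stacked by the part also counted at KRT81, the part also counted at KRT87P and the remainder. The KRT81 part goes from 0.342 to 0.425 CPM in the negative libraries to 15.1 to 16.03 CPM in the positive libraries, and the remainder from 2.31 to 2.58 CPM to 4.10 to 5.32 CPM.

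The other hair keratins stayed near 0 in both lines. KRT34, a type I hair keratin, had 32 and 12 counts in the negative and 32 and 26 in the positive libraries, with overlapping lines (log2 fold change 0.52, SE 0.43, edgeR adjusted p = 0.462). KRT83, which shares long runs with KRT81, had 1, 5, 14 and 4 counts. KRT85 had 0, 2, 3 and 7, KRT82 had 0, 3, 4 and 3, and KRT40 had 11, 9, 1 and 6. No type I hair keratin, the class with which KRT81 and KRT86 pair in hair, was called.

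Other genes of the hair follicle were read as markers of a hair keratinocyte state. Of 8 such genes, 6 were in the table and 2 could be tested. LGR5, a stem cell gene of hair follicles and a Wnt target in other tissues, was 1.76-fold higher (68, 105, 137 and 142 counts, edgeR adjusted p = 0.0151). The span of LGR5 overlaps TSPAN8, which had more reads and a log2 fold change of -0.66. TCHH, the trichohyalin of the inner root sheath, had 18, 19, 11 and 7 counts and did not pass (edgeR adjusted p = 0.226). HOXC13, the transcription factor of hair keratin genes, had 2, 3, 5 and 2 counts, KRTAP3-1 had 4, 6, 4 and 3, DSG4 had 2, 7, 9 and 12, and KRTAP5-1 had 0 in all 4 libraries. The 6 genes summed to 1.48 to 2.28 CPM in the negative and 2.64 to 3.17 CPM in the positive libraries.

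Position on chromosome 12 separated the type II keratins that rose from KRT8 and KRT18. KRT80, KRT7, KRT86 and KRT81 follow each other at one end of the cluster, starting 0.0, 63.5, 80.3 and 117 kb from its first base. KRT8 and KRT18 lie at the other end, at 728 and 780 kb. Of the keratin genes in the table, 15 lie in the 588 kb between KRT86 and KRT8. Only KRT79 of these could be tested, and none of the 15 had more than 18 counts in a library. KRT7 and KRT86 overlap, as do KRT86 and KRT81, so the 4 neighbours are not independent observations.

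**Figure D4:**
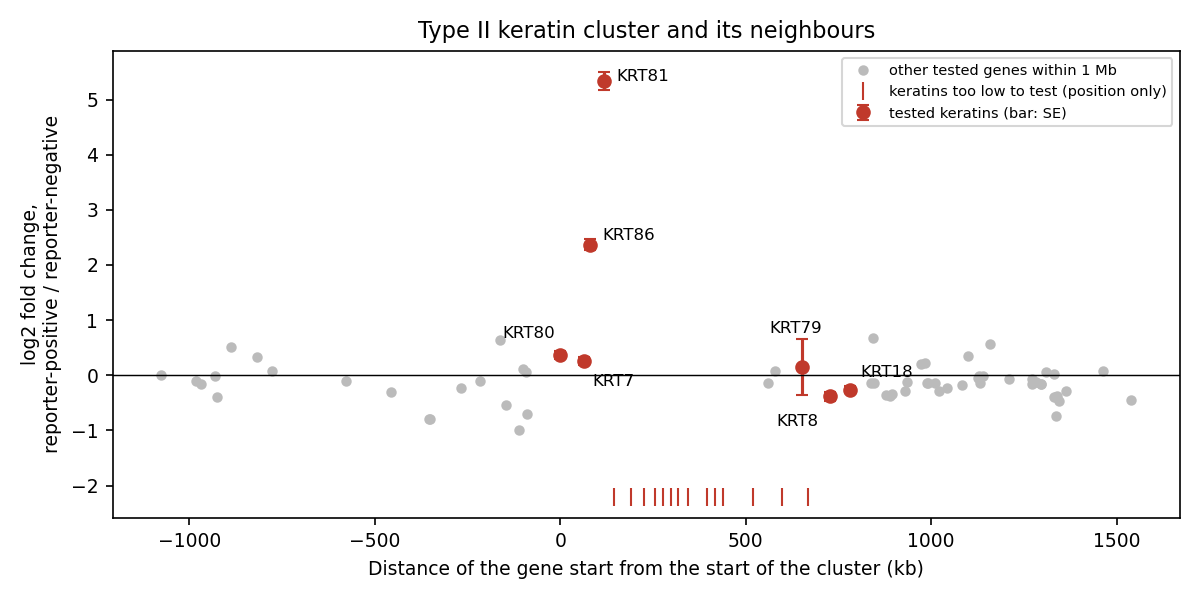
Log2 fold change with 1 standard error (edgeR) of the tested keratins of the chromosome 12 cluster, in red, against distance in kb from the start of the cluster. Grey points are other tested genes within 1 Mb and ticks are untested keratins. The 4 called rises lie within 117 kb of the start and the 2 called falls lie beyond 728 kb.

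Within 1 Mb of the chromosome 12 cluster, 60 genes that are not keratins were tested. Of these, 2 were higher and 10 lower, where 11.6% and 10.9% of all tested genes were, and their median log2 fold change was -0.14. Near the chromosome 17 cluster, 83 were tested, 4 higher and 9 lower (15.7% called, median log2 fold change -0.06). Of the genes within 1 Mb before the 4 rising keratins, GALNT6, a glycosyltransferase, was the only one called higher (log2 fold change 0.33, edgeR adjusted p = 0.00202). In the same stretch SMAGP, ENSG00000260473 and FIGNL2 were called lower (log2 fold changes -0.40, -0.79 and -0.79). GALNT6 was singled out after its value was seen.

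Keratin filaments end at desmosomes between cells and at hemidesmosomes under them, and cytolinkers tie them to these sites. Over lists of such genes and of epithelial transcription factors, 35 of 38 genes could be tested, 8 higher and 17 lower, where 11.6% and 10.9% of all tested genes were higher and lower and 22.4% were called in all. The counts of each list below are to be read against these shares. The calls were most one-sided in the hemidesmosome list, where all 6 genes were lower, with a median log2 fold change of -0.50. Leaving out a reporter-negative library lowered the number of these 35 genes called lower to 9.

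ITGB4, the integrin beta chain that binds keratin through plectin, had 24144 and 20702 counts in the negative and 7495 and 5754 in the positive libraries. The mean fell from 359 ± 30.5 to 115 ± 6.73 CPM, to 32.0% (edgeR adjusted p = 5.47e-12), with GALK1 overlapping it at 32.0% of its counts. Its partner chain ITGA6 fell from 543 ± 2.48 to 317 ± 23.7 CPM, to 58.4% (edgeR adjusted p = 5.92e-07). PDK1-AS1 overlaps ITGA6, at 67.9% of its counts. PLEC, which encodes plectin, had 2292 ± 268 and 1567 ± 175 CPM, 68.4% of the reporter-negative level (edgeR adjusted p = 0.00116). The PLEC call was lost without the negative library numbered 1 (adjusted p = 0.184). CD151, the tetraspanin of hemidesmosomes, was at 80.2% (edgeR adjusted p = 0.00405), a call lost without the negative library numbered 2 (log2 fold change -0.25). POLR2L overlaps CD151, at 93.9% of its counts and with a log2 fold change of -0.26.

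Of 7 cytolinkers and filament organisers, 5 were lower, FAM83H was higher and MACF1 did not pass, with a median log2 fold change of -0.39. PPL, which encodes periplakin, fell from 12.1 ± 1.26 to 5.61 ± 0.326 CPM (edgeR adjusted p = 4.11e-07). EPPK1, which encodes epiplakin, a protein that binds keratin bundles, fell from 6.22 ± 0.644 to 2.79 ± 0.0112 CPM (edgeR adjusted p = 6.14e-06). EVPL, which encodes envoplakin, fell to 71.9% (edgeR adjusted p = 0.000520), and TEN1-CDK3 overlaps it, at 49.8% of its counts. BBLN fell to 76.1% (edgeR adjusted p = 0.00196), and without the negative library numbered 2 its adjusted p was 0.0578.

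Desmosome genes went both ways, 3 higher, 4 lower and 4 not passed of 11 tested, with a median log2 fold change of 0.01. PKP3, a plakophilin of desmosomes, fell from 14.8 ± 0.189 to 9.69 ± 0.210 CPM (edgeR adjusted p = 5.37e-05), whereas PKP4, a plakophilin also found at adherens junctions, rose from 47.5 ± 2.51 to 65.5 ± 1.56 CPM (edgeR adjusted p = 5.94e-05). PKP4-AS1 overlaps PKP4, at 42.1% of its counts. DSG2, the desmoglein of simple epithelia, rose from 99.4 ± 1.21 to 133 ± 1.71 CPM (edgeR adjusted p = 0.000134). DSG2-AS1 overlaps DSG2, at 64.0% of its counts. PERP fell to 80.7% (edgeR adjusted p = 0.00346), with an adjusted p of 0.109 without the negative library numbered 1.

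Of 11 tested transcription factors of epithelial cells, 4 were higher, 2 were lower and 5 did not pass, with a median log2 fold change of -0.05. TP63 had 331 and 325 counts in the negative and 1230 and 988 in the positive libraries. Its mean rose 3.66-fold, from 5.25 ± 0.0556 to 19.2 ± 0.515 CPM (edgeR adjusted p = 1.15e-11), while the basal keratins KRT5 and KRT14 remained below the count filter. TFAP2C, the AP-2 factor of luminal and trophoblast cells, had 991, 989, 2626 and 2347 counts and rose 2.73-fold (edgeR adjusted p = 2.07e-11). EHF, an ETS factor of glandular epithelia, rose 1.34-fold (edgeR adjusted p = 0.000140), and GRHL1, a grainyhead factor, fell to 46.1% from 1.18 ± 0.108 CPM (edgeR adjusted p = 0.00755).

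**Figure D5:**
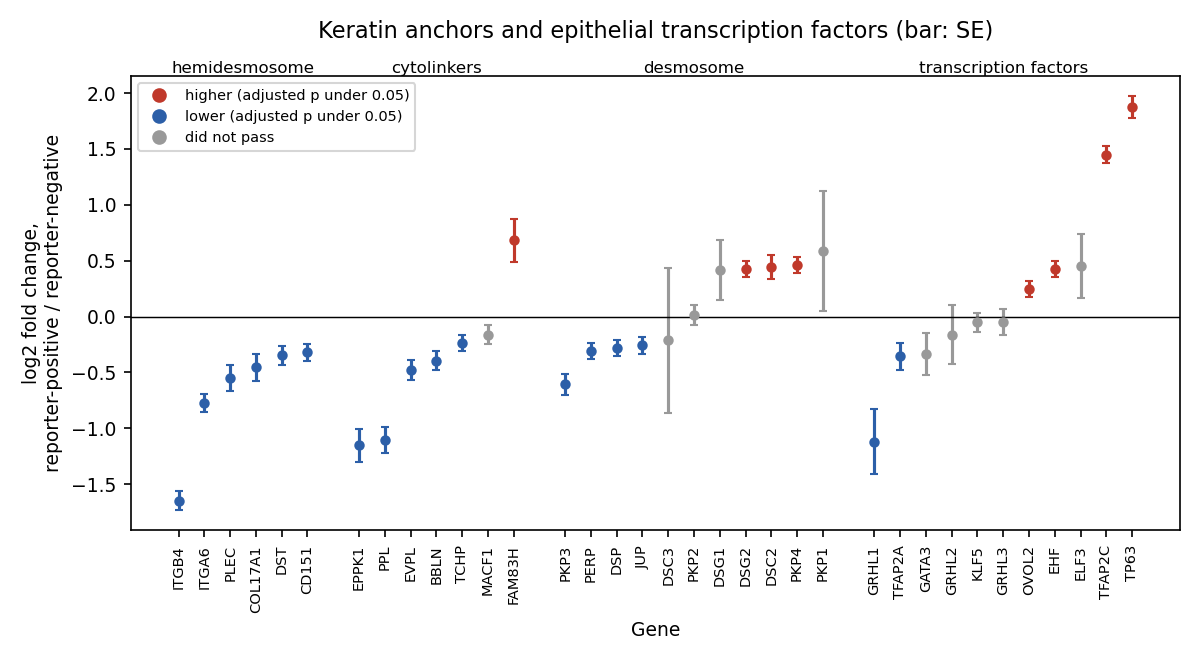
Log2 fold change with 1 standard error (edgeR) of the tested hemidesmosome, desmosome, cytolinker and epithelial transcription factor genes, in red or blue where the adjusted p was under 0.05 and grey where not. All 6 hemidesmosome genes lie below 0, and TP63 and TFAP2C, at 3.66-fold and 2.73-fold, stand highest.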

How the data were processed

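The authors deposited a table of raw counts for Ensembl genes, 1 column per library, which was used as it stands. Per the submitters' processing notes, the processing involved HISAT2, Bowtie2, DESeq2 and hg19, with no version or role stated. How reads were counted, with which annotation and strand, is not given in the sources used here. The 43714 identifiers are all in GENCODE release 29 on GRCh38, the source of names, types and positions.

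The test was edgeR's (version 4.0.16, R 4.3.3), with TMM scaling (filterByExpr, minimum count 10 and total 15, robust quasi-likelihood F test, Benjamini-Hochberg over 30952 genes, called under 0.05). On simulated counts with known changes, false calls made up more than the nominal 0.05 of its calls, and the same may hold for the real counts. SE is the log2 fold change divided by the square root of F, and CPM use TMM-scaled totals. Within a line, libraries differed beyond counting error (32.8 and 17.1 chi-square units per degree of freedom).

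Every tested keratin is named, with up to 4 called genes of each partner list, those with the smallest p. Members and lists were chosen with earlier results of these data known. Lists were given counts and medians without a test. Other settings tried were DESeq2 1.42.0, limma-voom (limma 3.58.1), scaling by RLE or by total count, tests without a filter or on genes at 1 CPM in 2 libraries, the library number as a block, each library left out, and genes without overlap. Subtraction of KRT18 from KRT8 and of KRT81 and KRT87P from KRT86 before a fit was chosen after seeing the data. Promoters are from RefSeq (GRCh38.p14), where 25 of the 45 keratins matched. Some sequences and 1 marker are not reported here.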

Additional observations from a re-analysis of the deposited data

How the results depend on the processing

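None of the named keratins or partner genes changed direction with a call under the alternatives run. Apart from left-out libraries, 107 of 109 keratin values and 135 of 135 partner values kept their call, and KRT7 under total count scaling and KRT15 under DESeq2 were the exceptions. Among genes without an overlapping gene, 5 keratins were tested, with 1 higher and 1 lower. There, 1111 and 1093 of 9888 genes in all, and 2 and 8 of 13 partner genes, were higher and lower. With total count scaling, 2270 genes were higher in place of 3576.

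With 1 library left out at a time, 4 to 5 keratins were higher and 1 to 4 lower. Over all genes 2333 to 4704 were higher and 2025 to 4457 lower, and of the partner genes 6 to 8 and 9 to 17. With a line reduced to 1 library, the lone library is assumed to vary like the other line.

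The median log2 fold change of the simple keratins was -0.38, with -0.47 under total count scaling, -0.32 with the 1 CPM filter, -0.31 with limma-voom, -0.53 without overlapping genes and -0.42 to -0.28 with a library left out. That of the hair keratins was 2.37, with 3.85 under the 1 CPM filter, 0.50 without overlapping genes, 0.95 with overlapping keratin counts taken off and 2.31 to 2.44 with a library left out. These fits hold fewer genes of each group, except those with total count scaling, limma-voom, subtraction or a library left out. Total count scaling moved the log2 ratio of summed CPM to -0.33 for all keratins, -0.40 for simple and 2.10 for hair keratins. The log2 ratio of KRT86 less KRT81 was 0.95, against 2.37 as deposited. Within 0.5 Mb of the clusters, 1 and 5 of 40 neighbours on chromosome 12 and 2 and 3 of 38 on chromosome 17 were higher and lower.

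Deviations of same-numbered libraries correlated at 0.00788 across the 30952 tested genes, which are not independent replicates. Genes with few reads entered this value alongside abundant ones, so it cannot tell whether the library numbers pair the samples. With the replicate block, 5 keratins were higher and 4 lower. Over all genes, 4175 were higher and 4051 lower with the block, and 3576 and 3366 without it. Depth limits the 31 keratins below the count filter, for which no difference was detectable.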
